A study of Mus musculus with 10 samples.

Results

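The core circadian clock genes are described here in livers of 4-week-old male mice: Arntl, Clock, Npas2, Nfil3, Per1, Per2, Per3, Nr1d1, Dbp and Ciart. They were taken by name, and each was read from the array's transcript cluster (probes pooled over a stretch of a transcript) that is annotated with that gene symbol alone. Of the 10 genes listed, 9 had such a cluster, 1 each, among 22180 genes of the array, and all 9 passed the filter on low values among the 13308 genes tested. The cluster that names Per2 carries several symbols, so no value is given for Per2.

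RNA of whole liver was hybridised to Affymetrix whole-transcript mouse arrays, 1 array per liver, 10 in all. The study asked how livers look after a transient loss of the mitochondrial superoxide dismutase, Sod2, during gestation. Every animal carried Rosa26-rtTA, a doxycycline-responsive activator at a widely expressed locus, and every dam received doxycycline chow at 625 mg/kg, with the knockdown set to embryonic day 0 to 12.5. The 3 shRNA 1 and 3 shRNA 2 animals, together called adapted in the labels, also carried 1 of the 2 hairpins against Sod2, and the 4 rtTA controls were littermates with rtTA alone. Littermates of the shRNA 2 line made up 3 of the controls and of the shRNA 1 line 1, and the labels do not say which, so hairpin and cohort cannot be told apart. The labels used here do not give the time of day at which a liver was collected.

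The clock is a loop of transcription factors. ARNTL (also called BMAL1) pairs with CLOCK or its relative NPAS2 and switches on genes with E-box sequences, among them the Per, Nr1d1, Dbp and Ciart genes, whose products act later in the cycle. PER proteins and CIART hold the activator back, NR1D1 (REV-ERB alpha) represses Arntl through ROR response elements, and DBP and NFIL3 compete at D-box sequences, DBP as an activator and NFIL3 as a repressor. In mouse liver, levels of Arntl, Clock, Npas2 and Nfil3 RNA are known to peak at times when those of the other group are low.

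The 10 arrays had medians of log2 4.06 to 4.17 and correlated pairwise at 0.979 to 0.987 over all clusters. They stand for separate livers in the labels, and their number limits the precision. Sod2 itself measured 10.43, 10.43 and 10.32 in shRNA 1, 10.34, 10.47 and 10.24 in shRNA 2, and 10.38, 10.49, 10.33 and 10.33 in rtTA controls. The groups overlapped, long after the knockdown window (adapted minus control -0.01 on the log2 scale, limma adjusted p = 0.98). The mean of 9 hepatocyte markers was 12.77 to 12.83 in shRNA 1, 12.71 to 12.75 in shRNA 2 and 12.73 to 12.77 in control livers, which fits the labelled tissue. In whole tissue, fewer cells of a type and less RNA per cell cannot be told apart.

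The promoters are shown because the members are known to act on each other through short sequences. RefSeq windows from 250 bases before to 50 after the start (GRCm38.p6) were held for 9 members in 13 windows. Per2 was the member without one. The E-box CACGTG, whose letters read the same on both strands, occurred in windows of Ciart and Per1, 2 of the 9 members, and in 7.15% of 32851 promoters or, with any window of a gene counted, in 8.09% of 27025 genes. The D-box, searched as TTATGTAA or TTACGTAA on both strands, occurred in Per3 and in 1.06% of promoters (1.23% of genes). The ROR response element was searched on both strands as TAGGTCA with any 2 bases and then an A before it, and it occurred in Arntl and in 0.697% of promoters (0.825% of genes). No searched motif overlapped another in these windows. The stretches with a match follow, 5′ to 3′ on the gene's strand, with the motif in capitals.
Ciart, chr3:95882237-95882374, minus strand: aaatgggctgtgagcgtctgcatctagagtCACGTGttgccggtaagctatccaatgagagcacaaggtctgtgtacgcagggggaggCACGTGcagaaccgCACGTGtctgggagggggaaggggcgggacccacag
Per1, chr11:69098753-69098818, plus strand: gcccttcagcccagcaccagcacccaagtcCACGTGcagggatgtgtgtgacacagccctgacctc
Per3, chr4:151044786-151044900, minus strand: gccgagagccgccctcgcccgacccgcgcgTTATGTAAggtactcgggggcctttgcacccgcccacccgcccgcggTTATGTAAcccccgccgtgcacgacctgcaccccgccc
Arntl, chr7:113207528-113207557, plus strand: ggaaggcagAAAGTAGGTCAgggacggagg

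Ciart held 3 E-boxes, whose first bases lie 116, 58 and 44 bases before the start. Per1 held 1, at 166 bases before the start that belongs to the stretch shown, and its other window held none. The 2 D-boxes of Per3 begin 205 and 158 bases before the start. The element of Arntl begins at base 27 of the transcript in the window that held it, and the other Arntl window held none. No match was found in these windows for Clock, Npas2, Nfil3, Nr1d1 or Dbp, which says only that these letters are not in them. With the looser E-box CANNTG, which includes every CACGTG, 7 of the 9 members held a match, as did 75.0% of genes and 72.3% of promoters.

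Values below are the deposited log2 expression values, on which a difference of 1 is a 2-fold difference. They are comparable between livers for one gene, not between genes. Of the activators, Arntl measured 6.86, 7.92 and 7.94 in shRNA 1, 6.29, 7.58 and 5.44 in shRNA 2, and 6.15, 7.66, 7.66 and 7.50 in rtTA controls. It ran over 2.50 log2 units, or 5.64-fold, and each group held at least 1 low and 1 high liver. Control replicate 1 lay far below the other 3 controls, and the lowest of all was shRNA 2 replicate 3.

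Clock, the partner of ARNTL, measured 9.67, 10.03 and 9.95 in shRNA 1, 9.56, 9.91 and 9.31 in shRNA 2, and 9.49, 9.99, 9.98 and 10.15 in control livers. The range was narrower, 0.84 log2 units, but the livers low for Arntl were low again. Npas2, the relative that can take the place of Clock, measured 4.49, 5.23 and 5.24 in shRNA 1, 3.79, 4.72 and 3.95 in shRNA 2, and 3.81, 4.46, 4.76 and 4.82 in control livers. Its highest values were those of shRNA 1 replicates 2 and 3, which were also the livers highest for Arntl. Nfil3, the D-box repressor, measured 6.44, 6.93 and 7.30 in shRNA 1, 6.12, 6.50 and 5.75 in shRNA 2, and 6.21, 7.19, 6.73 and 7.003 in control livers. All shRNA 2 livers lay within the lower part of the range, yet shRNA 2 replicate 2 stood above control replicate 1, so those groups overlapped.

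**Figure D1:**
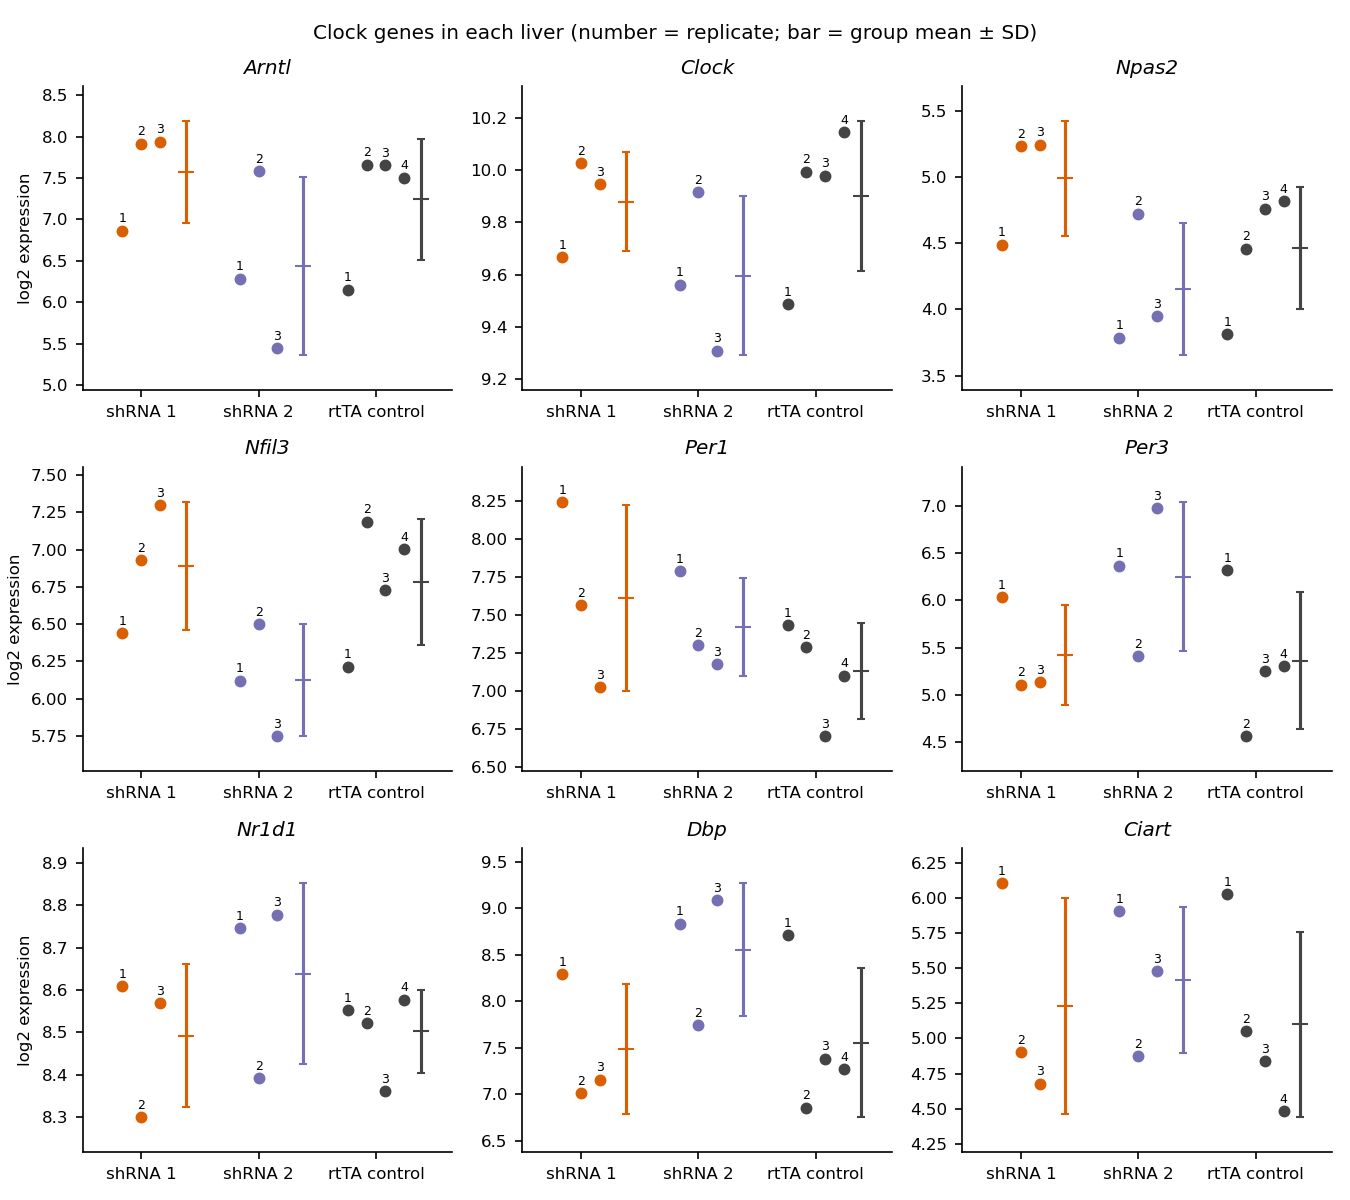
Log2 expression of the 9 measured clock genes in each liver, by group, where a point is a liver with its replicate number and the bar is the group mean with its SD (3 shRNA 1, 3 shRNA 2 and 4 rtTA control livers). Replicate 1 of every group and shRNA 2 replicate 3 are the 4 lowest livers for Arntl, between 5.44 and 6.86, and the 4 highest for Dbp, between 8.29 and 9.09. In shRNA 2 replicate 2 is the liver apart, at 7.58 for Arntl and 7.74 for Dbp.

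Among the repressors and outputs, Per3, a period gene, measured 6.03, 5.11 and 5.13 in shRNA 1, 6.37, 5.41 and 6.98 in shRNA 2, and 6.32, 4.56, 5.25 and 5.30 in control livers. It had a 5.34-fold range and was highest in shRNA 2 replicate 3, the liver lowest for Arntl. Dbp, the D-box activator, measured 8.29, 7.01 and 7.16 in shRNA 1, 8.84, 7.74 and 9.09 in shRNA 2, and 8.71, 6.85, 7.38 and 7.27 in control livers. Its 4 highest livers were those of Per3, and its range was 4.71-fold. Ciart, a repressor of the CLOCK and ARNTL pair, measured 6.10, 4.90 and 4.68 in shRNA 1, 5.91, 4.87 and 5.48 in shRNA 2, and 6.02, 5.05, 4.84 and 4.48 in control livers. The liver with the most Ciart was shRNA 1 replicate 1, whereas shRNA 2 replicate 3, highest for Dbp and Per3, was the fourth highest.

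Per1, a period gene that also answers to hormonal and feeding cues, measured 8.24, 7.56 and 7.03 in shRNA 1, 7.79, 7.30 and 7.18 in shRNA 2, and 7.43, 7.29, 6.70 and 7.10 in control livers. It followed a different order: shRNA 1 replicate 1 was highest, and shRNA 2 replicate 3 was among the 4 lowest. Nr1d1, the repressor of Arntl, measured 8.61, 8.30 and 8.57 in shRNA 1, 8.75, 8.39 and 8.78 in shRNA 2, and 8.55, 8.52, 8.36 and 8.58 in control livers. It moved least, by 0.48 log2 units or 1.39-fold over the 10 livers.

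Set against the other genes, most members were among the most variable within groups. The pooled SD within groups was 0.82 for Arntl, 0.75 for Dbp, 0.70 for Per3 and 0.66 for Ciart, ranks 27, 36, 47 and 57 of 13308 genes, whose median was 0.16. Npas2 (0.46), Per1 (0.42) and Nfil3 (0.41) also lay at or above percentile 97.9 of genes, and Clock (0.27) at percentile 88.3. Nr1d1, at 0.16, lay at percentile 48.7. Between groups lay 5.47% of the variance of Ciart and 47.1% of that of Nfil3, the lowest and highest of the 9, and 20.8% for the median gene. Npas2 (41.5%), Dbp (36.1%), Per3 (31.8%), Arntl (30.6%), Clock (27%) and Per1 (24.5%) also lay above the median gene, and Nr1d1 (19%) below it.

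Ordered by level, Dbp has its largest gap between 7.74 and 8.29, Per3 between 5.41 and 6.03, and Clock between 9.67 and 9.91. Each of these gaps parts the same 4 livers from the other 6: shRNA 1 replicate 1, shRNA 2 replicates 1 and 3, and control replicate 1. These 4 were the lowest for Arntl, Clock and Nfil3 and the highest for Per3, Dbp and Ciart, so 5 of the 8 members other than Arntl shared its order in this sense, against 2.28% of 13307 genes. Npas2, Per1 and Nr1d1 did not. For Arntl, Npas2, Nfil3, Per1, Nr1d1 and Ciart the largest gap lies elsewhere, for Arntl between 5.44 and 6.15. Nfil3 parts the 4 livers from the other 6 only by 6.44 against 6.50. The number 4 was taken from the gap of Dbp, itself counted among the 5, after the gaps were seen. No test was made of it. Both hairpin lines and the controls are among the 4 and among the 6. Because the livers part in this way for some members, no pooled correlation between members is given.

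**Figure D2:**
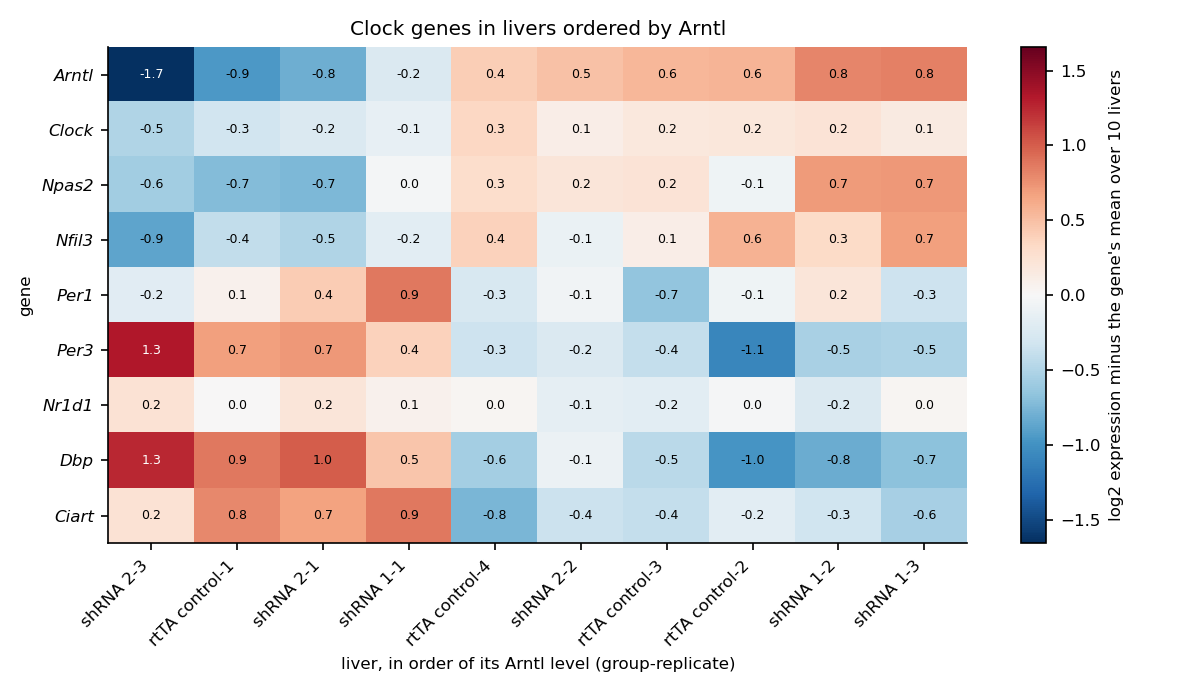
Deviation of each clock gene from its mean over the 10 livers (colour and number, log2 units), with livers in order of their Arntl level from left to right. In the 4 livers at the left, Arntl lies between -1.7 and -0.2 while Dbp lies between 0.5 and 1.3, and livers of all 3 groups are on both sides.

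How the members went together among livers of the same group was tested by a limma fit of every gene on group and on the Arntl value, with p-values adjusted over 13307 genes. Per3 and Dbp fell where Arntl was higher, and they were the 2 of 8 members called, both negative. Of all genes 0.0451% were called, 0.0301% with a negative and 0.015% with a positive slope. Per3 had a slope of -0.81 ± 0.09 (SE, log2 per log2 of Arntl) and Dbp one of -0.87 ± 0.10, each with a limma adjusted p of 0.0132. The call was lost for both without control replicate 1 (limma adjusted p = 0.165 each), without shRNA 1 replicate 1 (0.0666 for Dbp and 0.0602 for Per3) and without shRNA 2 replicate 2 (0.0971 each), and for Dbp without control replicate 4 (0.0506). With the replicate number as a block neither passed (limma adjusted p = 0.181 each). The labels do not say that a number marks a shared source, but replicate 1 of all 3 groups lay below its group mean for all 4 of Arntl, Clock, Npas2 and Nfil3 and above it for all 5 other measured members. Over all 10 omissions the slope stayed between -1.02 and -0.77 for Dbp and between -0.87 and -0.75 for Per3.

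The other members did not pass. The activators and Nfil3 had positive slopes, 0.31 ± 0.05 for Clock, 0.50 ± 0.09 for Npas2 and 0.45 ± 0.08 for Nfil3, with limma adjusted p-values of 0.114, 0.116 and 0.116. Without shRNA 2 replicate 3, Npas2 passed with a slope of 0.64 (limma adjusted p = 0.0448). Ciart had -0.64 ± 0.16, Nr1d1 -0.14 ± 0.06 and Per1 -0.23 ± 0.15, with limma adjusted p-values of 0.175, 0.369 and 0.531. The sign thus followed the known side of the loop for all 8, while the size of the slope ran from that of Dbp to that of Nr1d1.

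**Figure D3:**
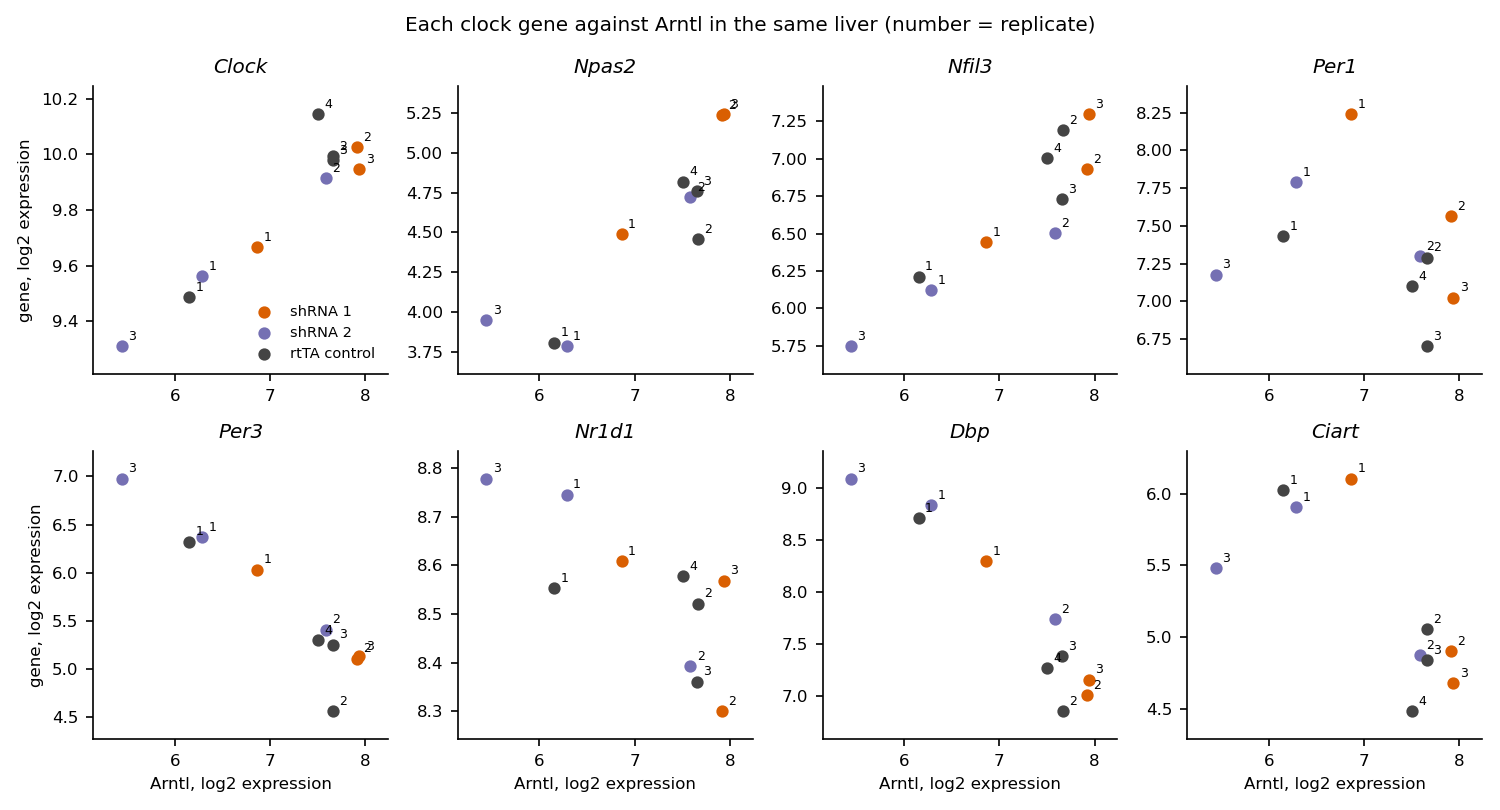
Each of the other 8 clock genes against Arntl in the same liver (both axes in log2 expression), where a point is a liver coloured by group with its replicate number. Per3 and Dbp fall as Arntl rises, with limma slopes within groups of -0.81 and -0.87, whereas Per1 scatters and Nr1d1 spans 0.48 log2 units.

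The same fit with each other member as the covariate gave the remaining pairs. The strongest ones tied Per3 and Dbp to each other: Dbp rose by 1.05 ± 0.09 (SE) per log2 of Per3 (limma adjusted p = 0.00503) and Per3 by 0.90 ± 0.08 per log2 of Dbp (limma adjusted p = 0.00319). Both calls were lost only without control replicate 1 (limma adjusted p = 0.0769 and 0.162). Ciart fell by 1.36 ± 0.14 per log2 of Npas2 (limma adjusted p = 0.00969), which did not pass when control replicate 1 (0.286), shRNA 1 replicate 1 (0.087) or shRNA 2 replicate 1 (0.0524) was left out. The reverse, Npas2 on Ciart, passed in the full set (slope -0.68 ± 0.08, limma adjusted p = 0.0375) and in 1 of 10 omissions, that of shRNA 2 replicate 3. Both slopes use values of Npas2 that run below the cutoff of the filter on low values.

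With Clock as the covariate, Arntl had a slope of 2.92 ± 0.30 (limma adjusted p = 0.017), so a liver with a little more Clock had much more Arntl. Dbp had -2.61 ± 0.34 on Clock (limma adjusted p = 0.0409). These calls were lost in 4 and in 8 of the 10 omissions. Arntl itself had a slope of -1.12 ± 0.12 on Per3 (limma adjusted p = 0.0137) and -1.03 ± 0.12 on Dbp (limma adjusted p = 0.0192), lost in 6 and in 4 omissions. The omission of control replicate 1 or of shRNA 1 replicate 1 was among those that ended each of these 4 calls.

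In all, 6 of 36 pairs were called in at least 1 direction and 4 in both. The share of all genes called was 0.0526% on Clock, 0.015% on Npas2, 0.0301% on Per3, 0.0451% on Dbp and 0.015% on Ciart. On Nfil3, Per1 and Nr1d1 it was 0%, and no member was called there. By sign alone, deviations from the group means were positively related in 6 of 6 pairs among Arntl, Clock, Npas2 and Nfil3 and in 10 of 10 pairs among Per1, Per3, Nr1d1, Dbp and Ciart. They were negatively related in 20 of 20 pairs across these sets. These signs held with ranks, with raw values and without any 1 array. They come from the same 10 livers and are not independent of each other.

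Between groups, no member passed the test. In the mean of both hairpin lines against the controls, 0 of 9 members passed adjusted p 0.05 in limma, and 0 had an unadjusted p under 0.05. The share of all genes called was 0.00751%, 1 gene, with 1114 genes at an unadjusted p under 0.05. Per1 came nearest, averaging 7.52 ± 0.45 in adapted livers (SD, n = 6) and 7.13 ± 0.32 in controls (SD, n = 4), a log2 difference of 0.38 (95% interval -0.10 to 0.86, limma adjusted p = 0.677, exact permutation p = 0.181). Arntl averaged 7.01 ± 1.00 in adapted livers and 7.24 ± 0.73 in controls, with a difference of -0.24 (interval -1.14 to 0.66) that leaves room for changes of either sign. The interval was narrowest for Nr1d1, 0.06 (-0.16 to 0.28).

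The other 6 members had adapted minus control differences of 0.48 for Per3, 0.47 for Dbp, 0.22 for Ciart, 0.11 for Npas2, -0.16 for Clock and -0.28 for Nfil3, with limma adjusted p-values of 0.765 to 0.942. The median over the 9 members was 0.11 against 0.01 over all genes tested. Adapted and control livers overlapped for 9 of 9 members, and they did not for 1.88% of all genes. Two-sided exact permutation p-values over the 210 splits of the livers ran from 0.181 to 0.786, where the smallest possible is 0.00476.

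**Figure D4:**
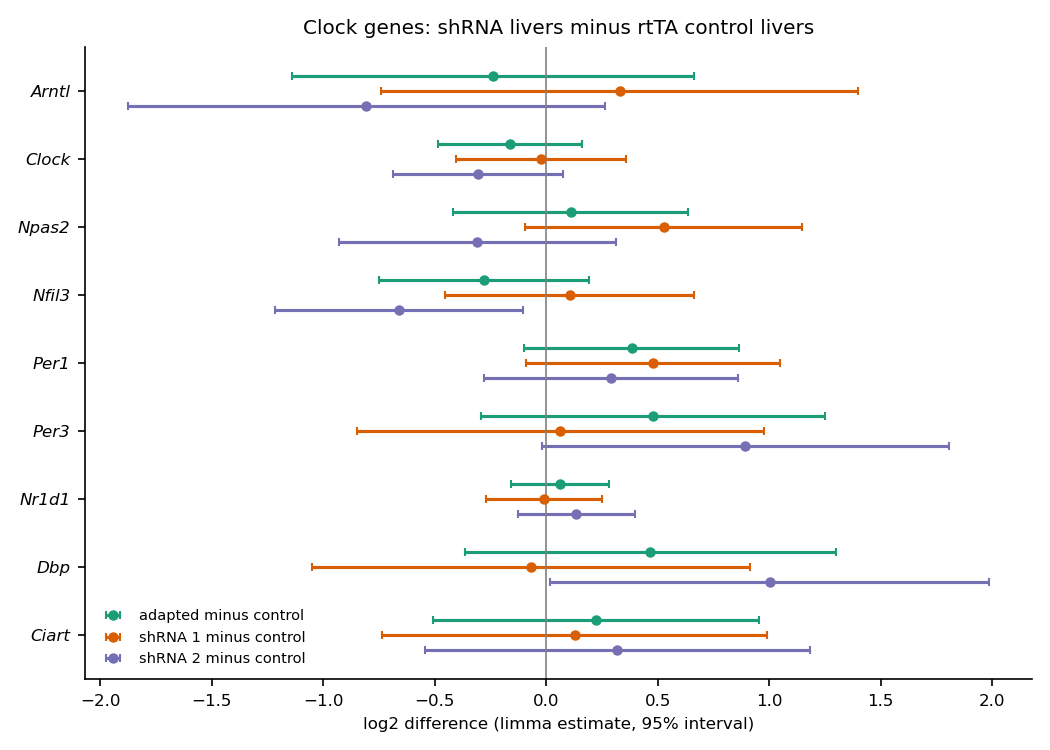
Log2 difference of each clock gene for all adapted livers (green), shRNA 1 (orange) and shRNA 2 (purple), each minus the same 4 rtTA controls (limma estimate with its 95% interval). Of the 27 intervals, 25 span 0, and the exceptions are Nfil3 and Dbp in shRNA 2, at -0.66 and 1.00, which did not pass after adjustment over all genes.

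The hairpin lines were then set against the same controls one by one, which the 2 comparisons therefore share. In shRNA 1 livers 0 of 9 members passed, with limma adjusted p-values of 0.703 to 0.995 and 0% of all genes called. An unadjusted limma p under 0.05 was found for 0 members and for 1050 of 13308 genes. Npas2 at 0.53 and Per1 at 0.48 were farthest from 0. In shRNA 2 livers 0 of 9 passed, with 0.00751% of all genes called and limma adjusted p-values of 0.621 to 0.879. Here 2 members, Nfil3 and Dbp, had an unadjusted limma p under 0.05, as did 1011 of 13308 genes. Nfil3 averaged 6.12 ± 0.38 in shRNA 2 livers (SD, n = 3) and 6.78 ± 0.42 in controls (SD, n = 4), a difference of -0.66 (limma unadjusted p = 0.0242, adjusted p = 0.621, exact permutation p = 0.114).

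Dbp averaged 8.55 ± 0.72 in shRNA 2 livers and 7.55 ± 0.80 in controls, a difference of 1.00 (limma unadjusted p = 0.0465, adjusted p = 0.652, exact permutation p = 0.143). Arntl differed by -0.81 (95% interval -1.87 to 0.26) and Per3 by 0.89 (-0.02 to 1.80) in the same comparison. Of the 3 shRNA 2 livers, 2 belong to the 4 livers low for Arntl, against 1 of 4 controls and 1 of 3 shRNA 1 livers, and the part of this in the differences was not tested.

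Against each other, shRNA 1 and shRNA 2 livers differed in 0 of 9 members (limma adjusted p 0.723 to 0.982), with 0.015% of all genes called. Unadjusted limma p-values were under 0.05 for Nfil3 (0.77 higher in shRNA 1), Npas2 (0.84 higher) and Dbp (-1.07). Over all genes, 801 of 13308 had an unadjusted p under 0.05. With 3 livers on each side the exact permutation test cannot go below 0.1, and its p-values were 0.2 to 0.9. A test for any difference among the 3 groups called 0 of 9 members (limma adjusted p 0.605 to 0.956) and 0.00751% of all genes. The lowest unadjusted p-value of this limma test was that of Nfil3, 0.0306. Nfil3 was the only member under 0.05 unadjusted, as were 1043 of 13308 genes.

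The rest of the loop was read from a list of 12 further clock factors, of which 9 were tested. On Arntl within groups, 1 of 9 was called with a negative slope and 0 with a positive one (0.0301% and 0.015% of all genes). Called or not, 7 slopes were negative and 2 positive, with a median of -0.09 against 0.01 over all genes. The gene called was Tef, which encodes a D-box activator related to DBP. It measured 6.46, 5.86 and 5.66 in shRNA 1, 6.37, 5.78 and 6.69 in shRNA 2, and 6.60, 5.74, 5.84 and 5.87 in control livers. Its 4 high livers were those of Dbp, and its slope was -0.50 ± 0.06 (SE, limma adjusted p = 0.0132).

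Cry2, a partner of the PER proteins in repression, had a slope of -0.31 (limma adjusted p = 0.116), and Nr1d2, the relative of Nr1d1, one of -0.21 (0.219). Rora, an activator at the element that NR1D1 uses, had 0.09 (limma adjusted p = 0.429). Of 10 tested genes for kinases, ubiquitin ligases and other modifiers of clock proteins, 0 were called and the median slope was 0.09. Usp2, a clock-controlled deubiquitinase, had the steepest at -0.79 (limma adjusted p = 0.0607). Prkaa1 and Prkaa2, the catalytic subunits of AMP kinase, had 0.23 and 0.12, and Fbxw11, a ubiquitin ligase subunit, had 0.14 (limma adjusted p 0.162 to 0.432).

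Of 19 tested liver outputs of the clock, 1 was called with a positive and 1 with a negative slope on Arntl (0.015% and 0.0301% of all genes). Called or not, 7 slopes were positive and 12 negative, with a median of -0.23. Wee1, the kinase that delays entry into mitosis, measured 5.75, 5.13 and 5.002 in shRNA 1, 5.98, 5.29 and 6.90 in shRNA 2, and 5.81, 5.03, 4.74 and 4.57 in control livers. It was highest in the liver with least Arntl and fell by 0.70 ± 0.08 per log2 of Arntl (limma adjusted p = 0.0132). Cdkn1a, the cell cycle inhibitor p21, measured 7.84, 9.02 and 8.50 in shRNA 1, 7.09, 7.96 and 6.02 in shRNA 2, and 6.16, 8.46, 8.73 and 8.04 in control livers. It went with Arntl, with a slope of 1.11 ± 0.13 (limma adjusted p = 0.0133). The calls of Tef, Wee1 and Cdkn1a were lost without control replicate 1 (limma adjusted p = 0.165 each), without shRNA 1 replicate 1 (0.0602 each) and without shRNA 2 replicate 2 (0.0971, 0.118 and 0.0967). Those of Wee1 and Cdkn1a were also lost without shRNA 2 replicate 3 (0.076 and 0.0687), and that of Cdkn1a without control replicate 4 (0.0506). Under the replicate block Wee1 passed (limma adjusted p = 0.0298), and Tef and Cdkn1a did not (0.181 and 0.239).

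Cyp2a4, a steroid hydroxylase whose probes may not be told apart from the near-identical Cyp2a5, had a slope of -1.30 (limma adjusted p = 0.064). The cluster annotated with Cyp2a5 had -0.31 (limma adjusted p = 0.599). Upp2, uridine phosphorylase, had -0.46 (limma adjusted p = 0.114). None of the 38 tested genes in these 3 lists was called between adapted livers and controls.

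**Figure D5:**
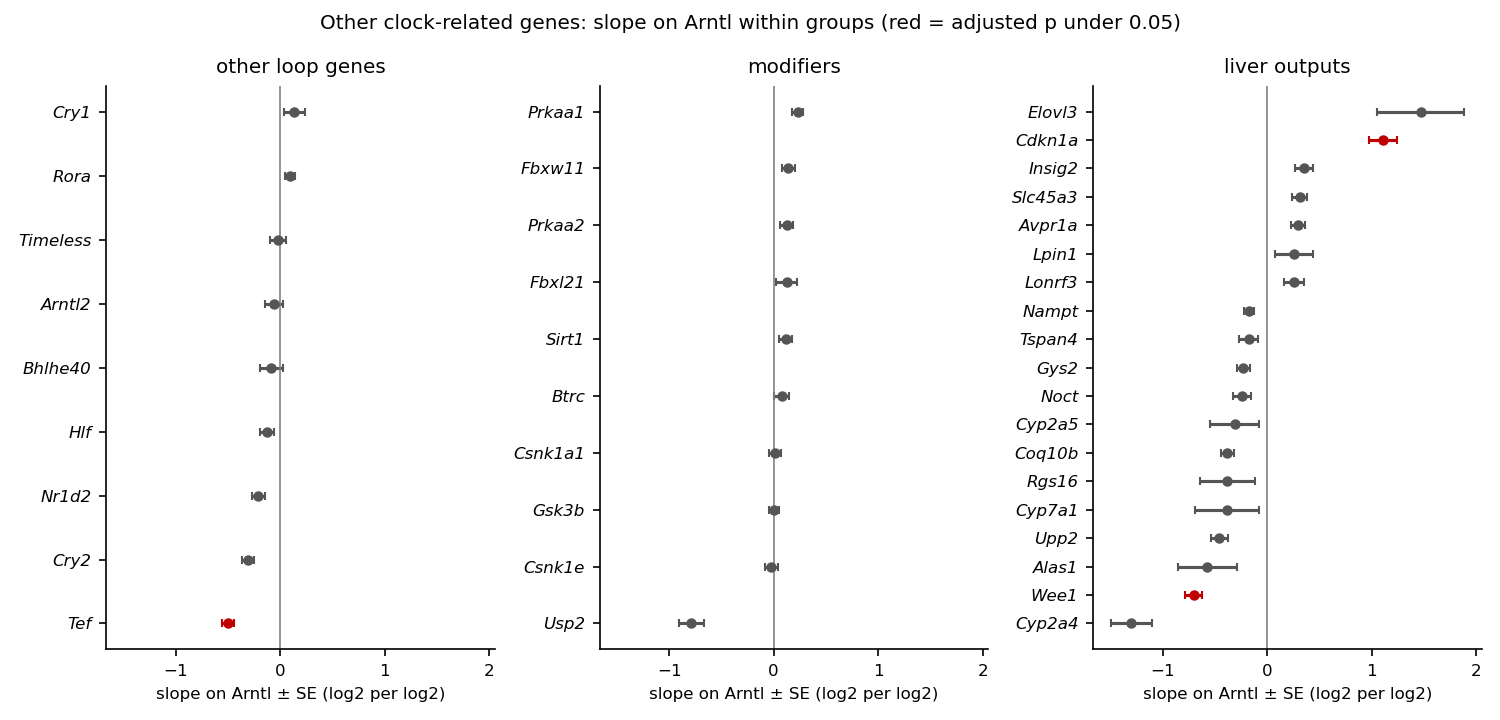
Slope on Arntl within groups (log2 per log2, with its SE) for tested genes of 3 lists: other loop genes, modifiers of clock proteins, and liver outputs. Red marks genes past the adjusted threshold in limma, which are Tef at -0.50, Cdkn1a at 1.11 and Wee1 at -0.70, calls that each depend on single livers.

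Genes that answer to cues known to set the liver clock were read in the same way. Of 12 glucocorticoid targets 1 was called, Cdkn1a, which is also in the list of outputs. Mt1 and Mt2, metallothioneins, had slopes of -0.42 and -0.27, and Zbtb16, a zinc finger gene induced by glucocorticoids, had 0.64 (limma adjusted p 0.15 to 0.271). Of 13 genes of feeding and fasting 0 were called, and the steepest by test were Srebf1, a lipogenic factor, at -0.30, and Igfbp1, a fasting-induced binding protein, at -0.65 (limma adjusted p 0.298 and 0.425). Of 7 genes that respond to temperature 0 were called, with 6 positive and a median slope of 0.20. Hsp90aa1, a chaperone, had 0.20 (limma adjusted p = 0.255). The list mixes chaperone genes with Cirbp (0.096), so its signs are not read as 1 direction of a temperature response. Of 9 immediate early genes 0 were called. Atf3, a stress-induced factor, had -0.28 (limma adjusted p = 0.258).

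Cell type markers gave 0 calls on Arntl in each of the 7 lists with tested genes. The hepatocyte median slope was -0.003 over 9 genes, and macrophage, endothelial and stellate cell medians were -0.04, -0.03 and -0.02 over 10, 8 and 8 genes. All 5 tested lymphocyte markers had negative slopes, led by Cd79b at -0.27 (limma adjusted p = 0.15). The mean of all 7 measured lymphocyte markers, which includes 2 below the filter on low values, was 4.28 to 4.53 in shRNA 1, 4.22 to 4.45 in shRNA 2 and 4.18 to 4.38 in control livers, and its part in the members' slopes was not tested. Of 7 neutrophil markers 0 passed the filter on low values.

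Past the members, Tef, Wee1 and Cdkn1a, 1 further gene was called on Arntl over the whole array, Ndrg1, a stress-responsive gene. It measured 7.28, 7.55 and 7.75 in shRNA 1, 7.30, 7.90 and 6.77 in shRNA 2, and 6.71, 7.75, 7.79 and 7.80 in control livers, with a slope of 0.57 ± 0.07 (limma adjusted p = 0.0132). Its call was lost in 4 of 10 omissions, those of control replicate 1, shRNA 1 replicate 1 and shRNA 2 replicates 2 and 3, and under the replicate block (limma adjusted p = 0.149). Genes were also ranked by correlation of deviations from group means over the 10 livers, a description that shares the split of the livers. Predicted and unnamed genes were passed over. Outside the members, those most like Arntl were Aasdhppt (0.988), Cdh2 (0.98), Ndrg1 (0.963), Plpp1 (0.962) and Tfb1m (0.957). Those most opposed were Ace (-0.978), Tef (-0.977), Gpr146 (-0.959), Tk1 (-0.959) and Sirpa (-0.958). Of all these genes only Ndrg1 and Tef were called on Arntl. A close correlation did not mean a large change: Cdh2, N-cadherin, stayed between 9.89 and 10.08. Among genes that are not members, those most like Dbp were Ldb1 (0.986), Erbb2 (0.972) and Ace (0.967). None of them was called on Dbp (limma adjusted p 0.124 to 0.203).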

How the data were processed

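The authors deposited a log2 value for each transcript cluster on each of 10 arrays of 1 colour. Per the submitters' processing notes the authors made them with Affymetrix Expression Console. The version, background correction, normalization and build were not given in the sources used here. Values were taken as deposited. Of 41345 clusters 23521 carried 1 gene symbol, 1814 several and 16010 none. The cluster with the highest mean stood for a gene, and genes whose mean lay under the 40th percentile (log2 3.98) were dropped. Fits used limma 3.58.1 in R 4.3.3 with group as the term and, for slopes, the member's value added. Benjamini-Hochberg adjustment ran over all genes tested, with a threshold of 0.05. All tests were two-sided. The fits were tested on simulated data. Cohort was no term, since the controls are not assigned to cohorts. Replicate numbers were not used as pairs, since the labels tie them to no shared source. All clock genes, Sod2, and up to 4 genes per list by the size of the slope statistic are named. The genes most like Arntl and Dbp, with predicted and unnamed genes passed over, and Cyp2a5 beside Cyp2a4 are named too. The members and lists were chosen with earlier results of these data known. Alternatives were another normalization or centring, other filters and thresholds, cluster means, array weights, a trend with a robust prior, a replicate block, fits with fewer groups, no group term, other covariates and leaving out each array. Leave-one-out fits on members other than Arntl, and leave-one-out and block fits of the other genes called on Arntl, were added after seeing the data.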

Additional observations from a re-analysis of the deposited data

Results flagged for a closer look

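Arntl in rtTA control replicate 1, at 6.15, lay far from the other 3 controls, at 7.50 to 7.66, a gap of 0.894 of the group's range, above the critical value of 0.829 for 4 samples. It was the only such value among the 9 control groups checked, 1 for each member, where chance gives about 1 in 20. The same liver was lowest of the controls for Clock, Npas2 and Nfil3 and highest for Per1, Per3, Dbp and Ciart, and its omission ended all 10 slope calls between members.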

How the results depend on the processing

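No member was called between groups under any setting run. Of 676 values of the members' differences in the 4 comparisons, 650 kept their sign and 26 reversed, with the lowest adjusted p 0.393. With the replicate number as a block, shRNA 1 minus control turned to -0.078 for Ciart, 0.059 for Clock and 0.014 for Nr1d1. Leaving out 1 array turned signs within these ranges: adapted minus control, Arntl -0.60 to 0.011 and Npas2 -0.11 to 0.23. For shRNA 1 minus control they were Arntl -0.035 to 0.68, Ciart -0.31 to 0.44, Clock -0.16 to 0.084, Dbp -0.47 to 0.32, Nfil3 -0.10 to 0.33, Nr1d1 -0.069 to 0.086 and Per3 -0.24 to 0.39. For shRNA 1 minus shRNA 2 they were Ciart -0.63 to 0.084 and Per1 -0.13 to 0.48.

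The count of 2 members called on Arntl became 0 at a threshold of 0.01, 0 with the replicate block (Dbp -0.59 and Per3 -0.67, adjusted p 0.181 each), 5 with no group term, 1 with Npas2 and 0 with Nr1d1 as the covariate, and 0 to 3 when 1 array was left out. With a trend and robust prior Clock also passed (adjusted p 0.0224). Members called were 0 to 3 on Clock, 0 to 2 on Npas2, Nfil3 or Per3, 0 to 3 on Dbp and 0 to 1 on Ciart without 1 array. Over all genes, counts moved to 0 to 6 (adapted, 1 in the report), 0 to 30 (shRNA 1, 0), 0 to 3 (shRNA 2, 1), 1 to 8 (shRNA 1 minus shRNA 2, 2), 0 to 16 (any difference, 1) and 0 to 30 (slope on Arntl, 6). At the 60th percentile filter Npas2 and Ciart were not tested. Looser E-boxes were held by 7 members, stricter ones by 2. Per2 as a covariate could not be run, and single clusters gave no further value, each member having 1. The causes of these changes were not tested. Over all genes, 4 of 9 same-numbered pairs of livers correlated above 0.1 (range -0.25 to 0.267), and 5 of 10 arrays correlated best with their own number. Pairs of livers from different groups with different numbers ran from -0.279 to 0.272. With 3 or 4 livers a group and collection times not known here, differences under about the intervals printed were not detectable. Larger ones could also be missed, since the calls are adjusted over all genes and the intervals are not. In shRNA 2 minus control, the intervals of Nfil3 (-1.217 to -0.103) and Dbp (0.018 to 1.985) left out 0. Neither gene was called there (limma adjusted p = 0.621 and 0.652).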
